A study of Mus musculus with 4 samples.

Results

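The clustered protocadherins described here were the protein-coding genes whose symbols start with Pcdha, Pcdhb or Pcdhg and that held at least 10 counts over the 4 libraries, 47 of the 53379 genes in the deposited table. They comprised 5 genes of the alpha cluster, 21 of the beta cluster and 21 of the gamma cluster, out of 58 annotated genes of the 3 clusters. The 5 C-type genes (Pcdhac1, Pcdhac2, Pcdhgc3, Pcdhgc4 and Pcdhgc5) are also counted in their clusters, and 4 of them were members. The libraries came from cultured cortical astrocytes of the C57BL/6 strain, prepared from mouse cortex at postnatal day 0 and harvested at day 14 in vitro, with 2 wild-type and 2 Npas3-/- samples. Npas3 encodes a transcription factor of the bHLH-PAS family, and the labels give neither the design of the mutant allele nor the number of animals behind a sample. The p-values below speak only of the spread among the 4 libraries, part of which can be technical.

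Clustered protocadherins are cell adhesion molecules of the cadherin superfamily, best known from neurons, where each cell expresses its own set of isoforms and like sets recognise one another across cell contacts. Each gene of the alpha and gamma clusters has its own promoter and its own large variable exon, which encodes the extracellular domain, the membrane span and the start of the cytoplasmic tail. That exon is spliced to a few constant exons at the end of the cluster, shared by all genes of the cluster, which encode the common cytoplasmic domain. Beta genes lack constant exons and are encoded by a large exon of their own. In neurons the alternate isoforms are chosen stochastically through CTCF and cohesin, which bring a promoter to a distant enhancer, whereas the C-type genes at the end of the alpha and gamma clusters are expressed more uniformly. In astrocytes, gamma protocadherins take part in contacts with neurons and in synapse formation.

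The 3 clusters lie in a row on mm10 chromosome 18, all on the plus strand in the order alpha (36930184 to 37187661), beta (37264938 to 37524479) and gamma (37661793 to 37841873). Of the family genes that did not become members, Pcdha2, Pcdha5, Pcdha6, Pcdha7, Pcdha8 and Pcdhb1 had 0 counts in all 4 libraries, Pcdhac1 and Pcdha4 had 5 counts in total, and Pcdha3 and Pcdha9 had 9. Just inside the limit, Pcdha11 and Pcdhb10 had 16 counts in total, and a further gene to which the annotation gives the symbol Pcdha11, lying upstream of the other, had 21. Pcdhgb8, a gamma gene, is annotated as a polymorphic pseudogene, so that it was not a member, although it held 14610 counts. Of the 47 members, 43 had enough counts to be tested (3 alpha, 19 beta and 21 gamma genes), which left out both Pcdha11 genes, Pcdhb10 and Pcdhb11.

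Libraries held between 82965565 and 86932708 counts. Npas3 had 5129 and 8739 counts in the wild-type libraries and 2055 and 1386 in the Npas3-/- libraries, with a log2 fold change at -1.82 (SE 0.33, with an adjusted p of 0.0181 by edgeR's quasi-likelihood test). With a correction for the GC content and length of transcripts, which library preparation can favour, its log2 fold change was -0.85 (adjusted p = 0.0606, edgeR). All 10 astrocyte markers were counted, with a summed level of 3899 and 4944 CPM (counts set to a common library size and scaled by TMM) in wild type and 6922 and 7126 CPM in Npas3-/-. Glul, which encodes glutamine synthetase, was the most abundant of them, and 3 of the 10 were called higher and 3 lower in Npas3-/-. The markers of neurons, a cell type rich in clustered protocadherins, summed to 335 and 193 CPM in wild type and to 224 and 229 CPM in Npas3-/-, of which Stmn2 gave 218, 90.2, 128 and 115 CPM. Of the 14 neuronal markers 11 were tested, and 0 were called higher and 3 lower in Npas3-/- (Map2, Syt1 and Elavl3). Map2, which encodes a dendritic microtubule protein, had 36.4 and 45.0 CPM in wild type and 4.43 and 1.82 CPM in Npas3-/-, while Tubb3, a neuronal tubulin gene, had 45.9 and 21.9 CPM in wild type and 65.2 and 79.6 CPM in Npas3-/- and did not pass the test. Rbfox3, Snap25 and Dcx, the 3 that were too low to be tested, lay at or under 0.37 CPM in every library. The part of neurons in the members' values was not tested.

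The deposited counts had a property that matters for genes with few reads. Over all genes of the table, counts of 4, 8 and 12 were 2.097 to 2.66 times as common as counts of 3, 7 and 11 in the same library. A unit of count was therefore not always an independent read, and for members with few counts the true counting error is larger than the counts imply.

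**Figure D1:**
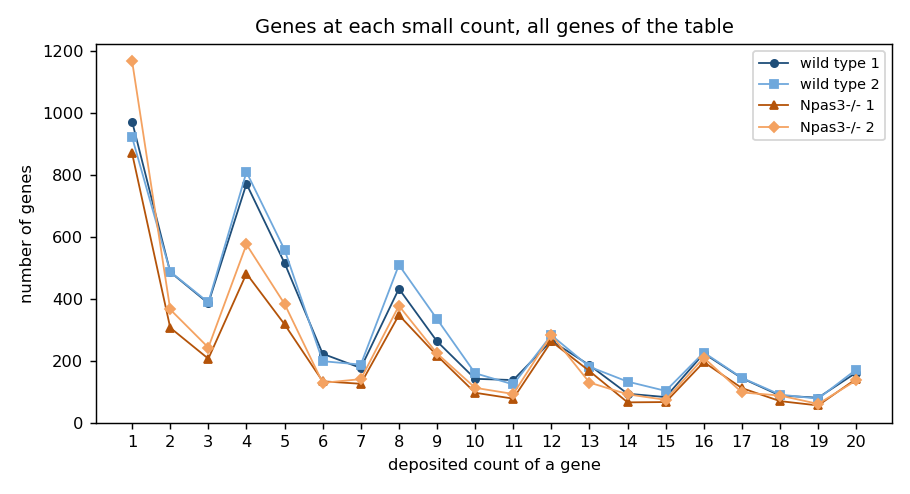
Number of genes (vertical axis) at each deposited count from 1 to 20 (horizontal axis), with a line for each library. All 4 libraries show peaks at counts of 4, 8 and 12, and genes at 4 numbered 772 and 810 for the wild-type pair and 482 and 576 for the Npas3-/- pair.

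The gamma cluster held nearly all clustered protocadherin RNA of these astrocytes. All members together took 0.225% and 0.278% of a library's counts in the wild-type pair, in replicate order, and 0.265% and 0.238% in the Npas3-/- pair. Gamma genes took 98.1% and 98.0% of the members' counts in wild-type cultures and 98.5% and 98.8% in Npas3-/-, with Wilson 95% intervals of at most 0.063 percentage points to either side that cover counting error only. Beta genes took 0.818% to 1.47% and alpha genes 0.415% to 0.710%. In bulk libraries, fewer cells with an RNA and less of it per cell cannot be told apart.

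Between genotypes, 1 of the 43 tested members was called at an adjusted p below 0.05 by edgeR, Pcdhb15, which was lower in Npas3-/-. In the same fit 33.1% of all 18838 tested genes were called, 11.6% higher and 21.5% lower. At an unadjusted p below 0.05 stood 8 of the 43 members and 9024 of all tested genes. The median log2 fold change was -0.19 over the members and -0.07 over all tested genes. By cluster, it was -0.05 over the 3 alpha genes, -1.44 over the 19 beta genes and 0.03 over the 21 gamma genes. In 6 of the 43 tested members both Npas3-/- libraries lay above both wild-type libraries and in 12 both lay below, whereas 75.8% of all tested genes showed no overlap between genotypes. With the correction for GC content and length, 0 members were called, against 12.7% of all genes (4.78% higher and 7.88% lower). An unadjusted p below 0.05 was then reached by 6 of the 43 members and by 6142 of all 18838 tested genes. The medians with the correction were -0.04 over the members, 0.69 over the 3 alpha genes, -0.45 over the beta genes and -0.04 over the gamma genes. DESeq2, another count test, called 6 of the 43 members: Pcdhb15, Pcdhb16 and Pcdhb18 lower, and Pcdhgb1, Pcdhga4 and Pcdhga8 higher in Npas3-/-. The share of all genes that DESeq2 called is not given here, so these 6 calls have no background beside them. Leaving out wild-type replicate 1 gave 5 calls by edgeR (Pcdhb18, Pcdhb21 and Pcdhgb4 lower, Pcdhb19 and Pcdhb22 higher), leaving out Npas3-/- replicate 1 gave 3 (Pcdhb14 lower, Pcdhga4 and Pcdhga8 higher), and leaving out either of the other libraries gave 0. Pcdhb15 was called by DESeq2 and by limma-voom as well, but was in none of the lists with a library left out. The count over all genes, 6232 in the full fit, was 5832 without wild-type replicate 1, and went to 2991 when wild-type replicate 2 was left out, to 2425 for Npas3-/- replicate 1 and to 0 for Npas3-/- replicate 2.

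**Figure D2:**
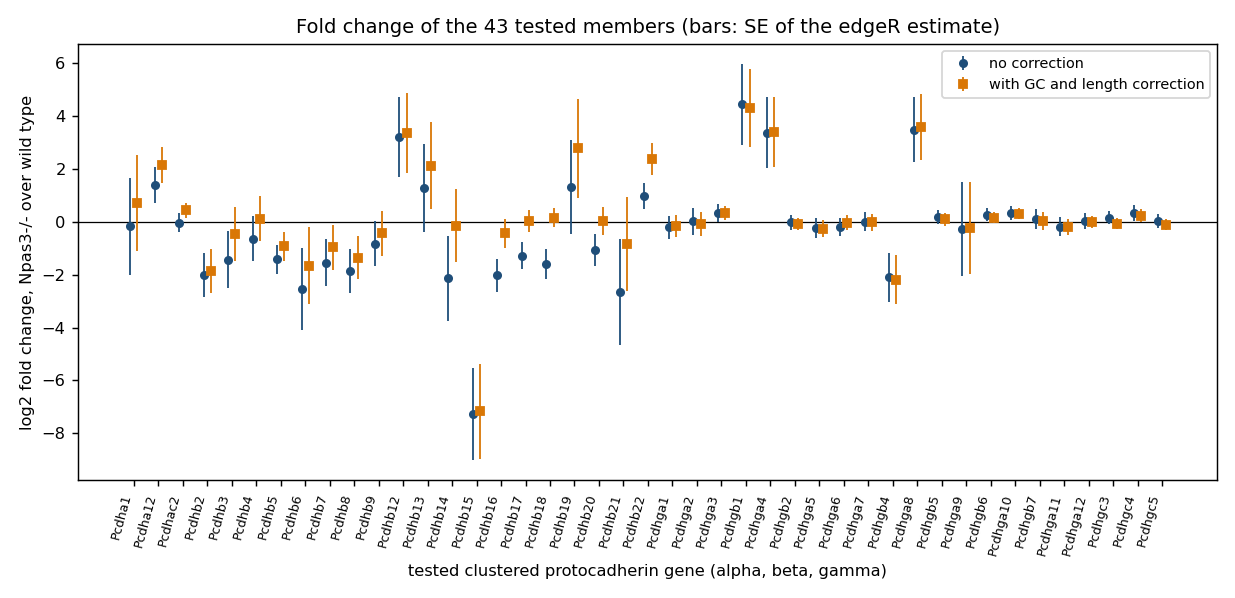
Log2 fold change of Npas3-/- over wild type (vertical axis) for the 43 tested members in cluster order, as estimated by edgeR without (circles) and with (squares) the correction for GC content and length; bars are the SE. Most gamma genes lie close to 0 with and without it, whereas 15 of the 19 beta genes lie below 0 without the correction and 11 with it.

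By mean level over the 4 libraries, Pcdhgc3 (1045 CPM) was the most abundant gene of the family. Pcdhgc5 (88.9 CPM) stood below only Pcdhgc3 and the alternate gamma genes Pcdhga9 and Pcdhgb1, described further on. Pcdhgc4 (37.2 CPM) lay close to the alternate gene Pcdhga7 (33.2 CPM), and Pcdhac2 (13.1 CPM) lay within the range of the alternate gamma genes. Pcdhgc3, the C-type gene by which gamma protocadherins are known to act on Wnt signalling through Axin1, had 82332 and 99375 counts in wild-type cultures and 104136 and 71921 in Npas3-/-, or 927, 1062, 1257 and 934 CPM. The highest and the lowest count both came from Npas3-/- libraries, so that the genotypes overlapped, and the log2 fold change was 0.14 (SE 0.25; adjusted p = 0.686, edgeR). Pcdhgc5 followed with 94.9 and 81.1 CPM in wild type and 109 and 70.7 CPM in Npas3-/- (log2 fold change 0.03, SE 0.27; adjusted p = 0.944, edgeR). Pcdhgc4, the C-type isoform known to be needed for the survival of neurons, stood at 29.0 and 37.3 CPM in wild type and 49.7 and 32.9 CPM in Npas3-/- (log2 fold change 0.32, SE 0.29; adjusted p = 0.428, edgeR). In all 4 C-type members Npas3-/- replicate 1 was the highest library, and in all 4 the genotypes overlapped. Per kilobase of exon that belongs to no other gene, the mean level over the 4 libraries was 574 CPM for Pcdhgc3, 19.3 for Pcdhgc5, 10.7 for Pcdhgc4 and 4.32 for Pcdhac2. These values divide the level of the whole gene by that length alone, so counts that may lie in shared exons are included. They also depend on the length used. Per kilobase of all exons they were 190, 11.7, 6.65 and 2.22 CPM, and per kilobase of variable exon 407, 33.9, 12.8 and 4.32 CPM. An antisense gene, BC037039, overlaps 1513 bases of the variable exon of Pcdhgc3 and held 174, 244, 431 and 302 counts in the same library order. Whether the counting used strand is not given in the sources used here, so reads of the pair cannot be told apart.

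The alternate gamma genes, of the A and B types, were split by a feature of the annotation, chosen after the values were seen. Pcdhga2, Pcdhgb1, Pcdhgb4, Pcdhga9 and Pcdhgb8 end at base 37841870, and the other 17 gamma genes end 3 bases later, at 37841873. Of these 5 genes with the early end, 4 had a highest count that was 10.8 to 291 times their lowest, and Pcdhga2 had one of 2.88 times. Of the 14 alternate genes with the late end, Pcdhga4 and Pcdhga8 overlap Pcdhgb1 and Pcdhgb4 and are given apart. The other 12 are called steady below, only as against the ranges of 10.8 to 291 times. Their median difference between Npas3-/- replicates was larger than that of all tested genes.

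The 12 steady genes were Pcdhga1, Pcdhga3, Pcdhgb2, Pcdhga5, Pcdhga6, Pcdhga7, Pcdhgb5, Pcdhgb6, Pcdhga10, Pcdhgb7, Pcdhga11 and Pcdhga12. Their levels lay between 3.38 and 43.4 CPM over all libraries. Pcdhga1 was the lowest of the 12 in every library and Pcdhga7 the highest, and the highest count was 5.66 to 7.30 times the lowest within a library. Pcdhga7 gave 28.4 and 38.1 CPM in wild type and 43.4 and 22.8 CPM in Npas3-/-. Pcdhga1 gave 4.16 and 6.73 CPM in wild type and 5.94 and 3.38 CPM in Npas3-/-. The median of the 12 was 15.6 and 19.2 CPM in the wild-type pair and 21.4 and 14.4 CPM in the Npas3-/- pair, and Pcdhgc3 had 55.2 to 64.9 times as many counts as the median gene. The level did not follow the order along the cluster (Spearman's rho 0.05 over 12 genes of the same libraries).

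No genotype difference passed the test in the 12 genes. Their log2 fold changes ran from -0.26 to 0.34, with SE of 0.24 to 0.45 and adjusted p of 0.351 to 0.990 (edgeR). Libraries of 1 genotype differed in all 12 genes. Npas3-/- replicate 1 lay above replicate 2 in 12 of 12 genes, and the median log2 ratio between replicates was 0.65 in Npas3-/- and 0.26 in wild type, against 0.34 and 0.38 over all tested genes with a count in every library. Npas3-/- replicate 1 was the highest library in 9 of the 12 genes and Npas3-/- replicate 2 the lowest in 9. The summed level of the 12 was 191 and 222 CPM in wild type and 258 and 168 CPM in Npas3-/-.

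Pcdhgb6 and Pcdhga10 were the 2 steady genes whose genotypes did not overlap. Pcdhgb6 had 17.3 and 20.4 CPM in wild type and 23.2 and 21.8 CPM in Npas3-/- (log2 fold change 0.26, SE 0.24; adjusted p = 0.439, edgeR). Pcdhga10 had 14.7 and 13.5 CPM in wild type and 19.7 and 16.04 CPM in Npas3-/- (log2 fold change 0.34, SE 0.26; adjusted p = 0.351, edgeR). Every exonic base of Pcdhga10 is shared with another gene, since Gm26672, a noncoding gene on the other strand, covers its variable exon whole. Gm26672 held 6 and 254 counts in wild-type cultures and 0 and 0 in Npas3-/-.

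In each library 1 of the 5 genes with the early end held most of their counts, and it was not the same gene in all. Pcdhga9 had 66919 and 82260 counts in wild-type cultures, 444 in Npas3-/- replicate 1 and 102606 in Npas3-/- replicate 2. Pcdhgb1 had 1283 and 3130 counts in wild-type cultures, 82306 in Npas3-/- replicate 1 and 2414 in Npas3-/- replicate 2. The library in which Pcdhga9 was low was thus the one in which Pcdhgb1 was high. The leading gene took 76.6% and 80.2% of the 5 genes' counts in the wild-type pair, 93.1% in Npas3-/- replicate 1 and 95.2% in Npas3-/- replicate 2.

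Pcdhgb8 had 14278 counts in wild-type replicate 1 and 179, 49 and 104 in wild-type replicate 2 and Npas3-/- replicates 1 and 2. Pcdhgb4 had 14659 counts in wild-type replicate 2 and 1575, 1883 and 1360 in wild-type replicate 1 and Npas3-/- replicates 1 and 2. Each of these genes was thus high in a single library of the 4. Pcdhga2 had 3260 and 2308 counts in wild-type cultures and 3707 and 1286 in Npas3-/-, the highest being 2.88 times the lowest. Among the 12 steady genes the largest such ratio was 2.42, for Pcdhga1.

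**Figure D3:**
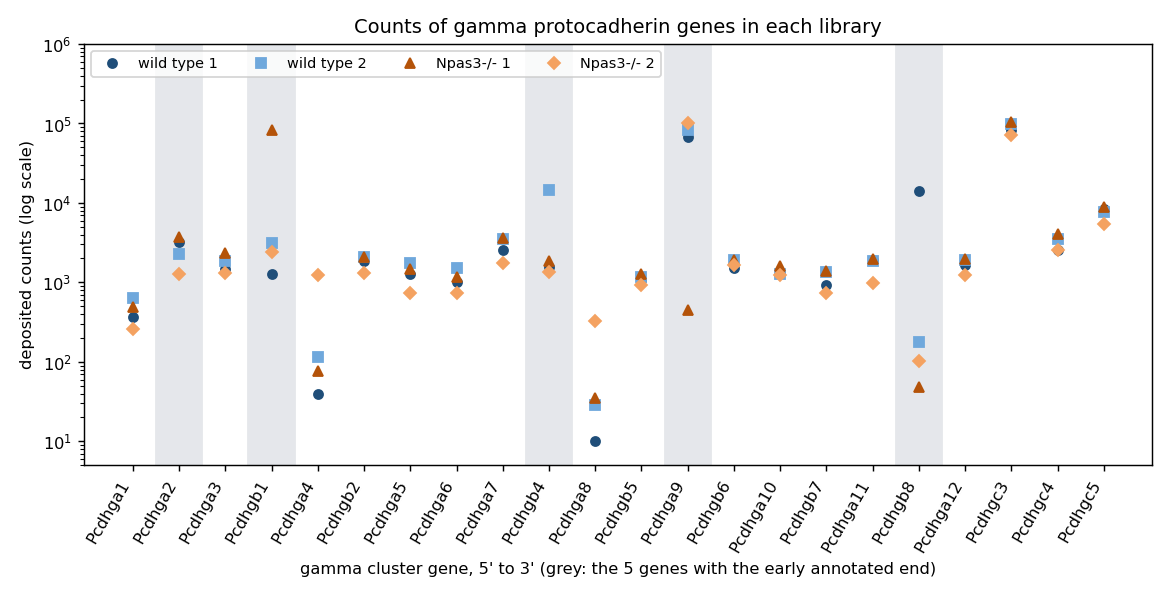
Deposited counts on a log scale (vertical axis) of the 22 gamma genes in cluster order (horizontal axis), with a symbol for each library; grey bands mark the 5 genes with the early annotated end. Pcdhgc3 and the steady genes lie together in all libraries, whereas Pcdhga9 is at 444 counts in the library in which Pcdhgb1 is at 82306.

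The sum over the 5 genes moved far less than the genes themselves. It was 87315 and 102536 counts in wild-type cultures and 88389 and 107770 in Npas3-/-, or 983, 1095, 1067 and 1400 CPM. Set against Pcdhgc3 of the same library, the sum was 1.06 and 1.03 times as large in wild type and 0.849 and 1.498 times in Npas3-/-. Between replicates, Pcdhga9 differed by 7.96 on the log2 scale in Npas3-/- and Pcdhgb8 by 6.39 in wild type, while among the 12 steady genes the largest such difference was 0.93. The constant exons of the cluster are part of every gamma gene, and how the counting assigned reads there is not given in the sources used here. Counts of the 5 genes therefore cannot be read as expression of their variable exons, and whether the 3-base difference in annotated ends bears on them was not tested.

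The fold changes of these genes rest on single libraries. The log2 fold change was 4.42 for Pcdhgb1 (SE 1.53; adjusted p = 0.0743), -0.29 for Pcdhga9 (SE 1.78; adjusted p = 0.915), -2.11 for Pcdhgb4 (SE 0.94; adjusted p = 0.132) and -6.39 for Pcdhgb8 (SE 2.001; adjusted p = 0.0581), all by edgeR. For Pcdhga9 it was 0.70 without Npas3-/- replicate 1, and -7.24 when Npas3-/- replicate 2 was left out instead.

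Pcdhga4 and Pcdhga8 were the remaining alternate gamma genes. Their variable exons are overlapped by second transcripts of Pcdhgb1 (1038 bases) and of Pcdhgb4 (108 bases). Pcdhga4 had 39 and 115 counts in wild-type cultures and 77 and 1244 in Npas3-/- (log2 fold change 3.35, SE 1.33; adjusted p = 0.103, edgeR), the 1244 coming from Npas3-/- replicate 2. Pcdhga8 had 10 and 29 counts in wild-type cultures and 35 and 330 in Npas3-/- (log2 fold change 3.47, SE 1.23; adjusted p = 0.0777, edgeR), with its 330 in the same library. Both were called higher by DESeq2 and by edgeR without Npas3-/- replicate 1, fits that each rest on that library.

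Summed over the whole gamma cluster with Pcdhgb8, the level was 2226 and 2499 CPM in wild type and 2741 and 2626 CPM in Npas3-/-, a ratio of the means of 1.14. The genotypes did not overlap on this scale. Over total counts, without TMM, which shifts every log2 fold change by -0.23, the sums were 2382, 2730, 2613 and 2354 CPM, the ratio was 0.971, and the genotypes overlapped. For the 21 gamma members the ratio was 1.18 with TMM and 1.01 over total counts, so that no direction can be given for the cluster as a whole.

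**Figure D4:**
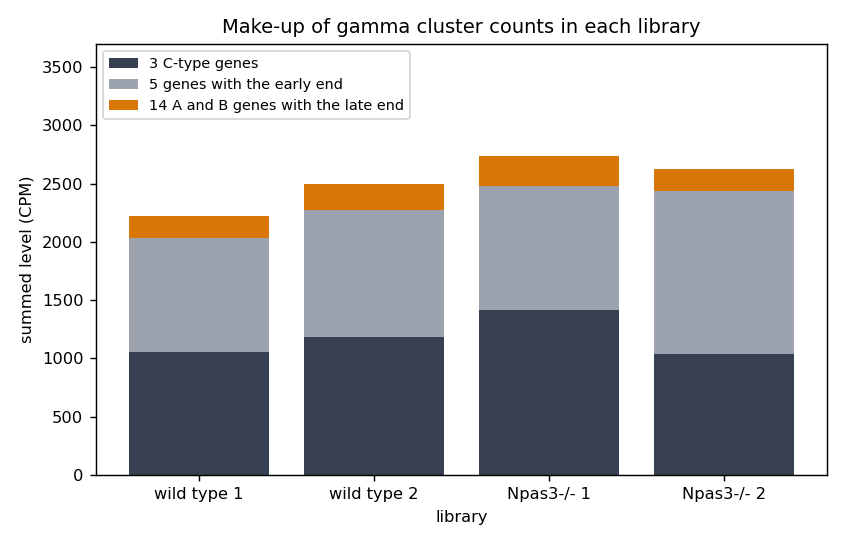
Summed level in CPM (vertical axis) of the gamma cluster in each library (horizontal axis), split into 3 C-type genes, the 5 genes with the early end and the 14 other A-type and B-type genes. The C-type genes gave 1051, 1180, 1416 and 1038 CPM from left to right, and the 5 genes gave 983, 1095, 1067 and 1400 CPM.

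Alpha genes were barely counted in these cultures apart from Pcdhac2, the C-type gene next to their constant exons. Pcdhac2 had 1192 and 1230 counts in wild-type cultures and 1369 and 708 in Npas3-/-, or 13.4, 13.1, 16.5 and 9.19 CPM (log2 fold change -0.05, SE 0.36; adjusted p = 0.931, edgeR). It held 89.8% and 95.4% of the alpha members' counts in wild-type cultures and 95.5% and 83.3% in Npas3-/-. The last share had a Wilson 95% interval of 80.6% to 85.7%, which takes each count as an independent read and is too narrow. The other C-type gene of the cluster, Pcdhac1, had 5 counts, all in wild-type replicate 1. Among alternate alpha genes, Pcdha1, which lies farthest from the constant exons, had 84 and 22 counts in wild-type cultures and 0 and 80 in Npas3-/- (log2 fold change -0.19, SE 1.81; adjusted p = 0.946, edgeR). Pcdha12 had 21 and 33 counts in wild-type cultures and 61 and 62 in Npas3-/-, with no overlap between genotypes, and did not pass the test (log2 fold change 1.38, SE 0.67; adjusted p = 0.159, edgeR). An antisense gene, Gm10545, covers 531 bases of its variable exon and had 2 counts in all. The upstream Pcdha11 had 17 and 4 counts in wild-type cultures and 0 in both Npas3-/- libraries, and the other Pcdha11 had 13, 0, 3 and 0. The summed level of the alpha members was 14.9 and 13.8 CPM in wild type and 17.3 and 11.04 CPM in Npas3-/-.

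Beta genes were expressed at low levels, and the highest lay toward the end of the cluster that faces gamma. Their mean levels over the 4 libraries ran from 0.043 CPM for Pcdhb10 to 8.37 CPM for Pcdhb22, or from 0.015 to 1.36 CPM per kilobase of unshared exon. The last 7 genes, Pcdhb16 to Pcdhb22, took 78.3% and 70.9% of the beta counts in wild-type cultures and 85.7% and 88.1% in Npas3-/-. Over the 22 beta genes, position along the cluster and mean CPM had a Spearman's rho of 0.52, and of 0.46 per kilobase of exon, as a description of genes counted in the same libraries. Between 1.504% and 11.99% of the 50-base windows in the exon of a beta member occur in another gene of the 3 clusters. For the variable exons of the other members this share ran from 0% to 18.4% in alpha and from 0% to 17.9% in gamma. A read that lies wholly within such a window has no single place in the genome, whereas a longer read or a read pair may have one.

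Of the 19 tested beta genes, 15 had a negative log2 fold change and 1 passed the test. Both Npas3-/- libraries lay below both wild-type libraries in 12 of the 21 members and above them in 2, against 40.1% and 35.7% of all tested genes. Wild-type replicate 2 was the highest library in 14 of the 19 tested genes and Npas3-/- replicate 2 the lowest, or tied for lowest, in 12. The summed level was 26.1 and 37.4 CPM in wild type and 25.7 and 21.7 CPM in Npas3-/-, a ratio of the means of 0.747, in which wild-type replicate 1 and Npas3-/- replicate 1 were nearly level. Without Pcdhb19, Pcdhb21 and Pcdhb22 it was 15.1 and 31.4 CPM in wild type and 10.6 and 6.83 CPM in Npas3-/-. These genes were set apart with their values known. Pcdhb19 and Pcdhb22 had positive log2 fold changes (1.31 and 0.97) and Pcdhb21 had -2.66, so the reduced sum does not stand for the cluster. The 7 markers of mural and smooth muscle cells summed to 1820 and 466 CPM in wild type and 1993 and 2145 in Npas3-/-. Most of the sum was Acta2 (1243 and 270 CPM in wild type, 1334 and 1359 in Npas3-/-) and Tagln (488, 96.7, 554 and 698). Pdgfrb (34.5 and 32.3 CPM) and Cspg4 (48.9 and 53.5 CPM) were nearly level in the wild-type pair. Rgs5 was highest in wild-type replicate 2 (11.5 CPM), and Myh11 and Kcnj8 lay at or under 1.84 CPM in every library. The part of these cells in the beta values was not tested.

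Pcdhb15 had 20 and 21 counts in wild-type cultures and 0 in both Npas3-/- libraries. It passed the test (adjusted p = 0.0395, edgeR). Against a floor of 3 counts in each Npas3-/- library it was 5.98-fold lower, with the wild-type counts taken as exact. Since a count was not always an independent read, this fold is not a firm lower bound for Pcdhb15. With the correction for GC content and length its adjusted p was 0.0656 (edgeR), and without any 1 of the 4 libraries it lay between 0.118 and 0.239. With all counts divided by 4 and rounded, an alternative added after the data were seen, Pcdhb15 was too low to be tested and Pcdhb16 was called in its place (log2 fold change -2.02; adjusted p = 0.0373, edgeR).

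Pcdhb18 and Pcdhb17 were the most abundant beta genes after Pcdhb22. Pcdhb18 had 3.72 and 9.39 CPM in wild type and 2.64 and 1.69 CPM in Npas3-/-, without overlap (log2 fold change -1.60, SE 0.56; adjusted p = 0.0771, edgeR). Pcdhb17 had 268 and 451 counts in wild-type cultures and 174 and 84 in Npas3-/-, likewise without overlap (log2 fold change -1.29, SE 0.51; adjusted p = 0.101, edgeR). With the correction for GC content and length these values were 0.15 and 0.01. Pcdhb16, with 92 and 152 counts in wild-type cultures and 32 and 20 in Npas3-/-, went from -2.04 (SE 0.62; adjusted p = 0.0539, edgeR) to -0.45 with the correction.

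Pcdhb22, the last gene of the cluster, had 712 and 310 counts in wild-type cultures and 828 and 937 in Npas3-/-. Its genotypes did not overlap, the log2 fold change was 0.97 (SE 0.48; adjusted p = 0.170, edgeR), and with the correction it was 2.36 (SE 0.59; adjusted p = 0.0545, edgeR). Pcdhb21, its neighbour, shares 455 exonic bases with it and had 0 and 252 counts in wild-type cultures and 21 and 13 in Npas3-/-. Pcdhb19 had 266 and 0 counts in wild-type cultures and 402 and 198 in Npas3-/-. In wild-type replicate 2, Pcdhb19 was thus at 0 and Pcdhb21 at its highest, and Pcdhb22 was at its lowest. The sum of the 3 genes was 11.01 and 6.004 CPM in wild type and 15.1 and 14.9 CPM in Npas3-/-.

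**Figure D5:**
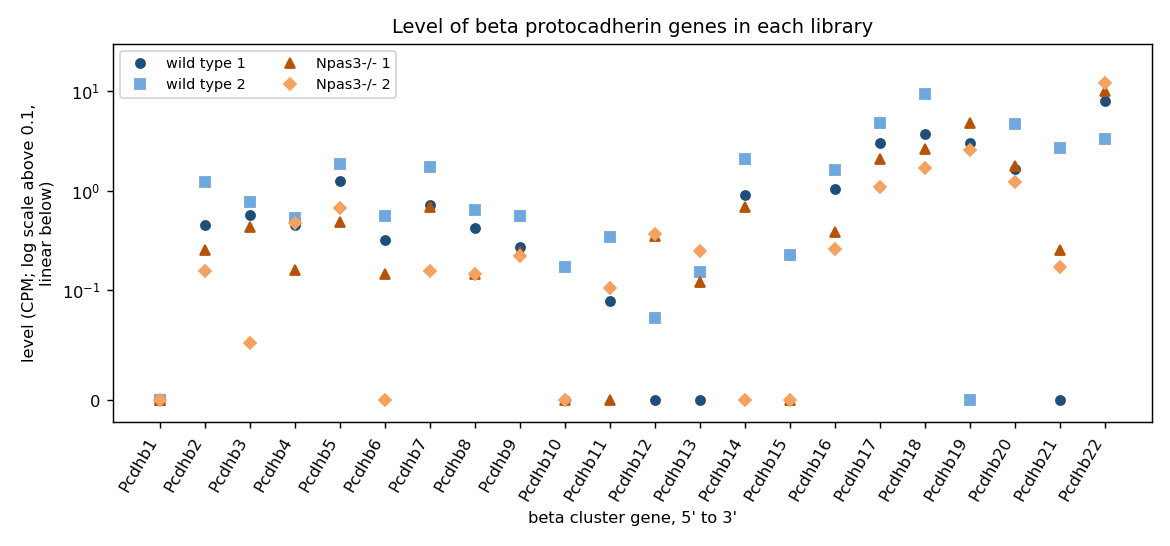
Level in CPM (vertical axis; log scale above 0.1 and linear below) of the 22 beta genes in cluster order (horizontal axis), with a symbol for each library. Wild-type replicate 2 lies highest for most genes, Pcdhb22 reaches 12.2 CPM in Npas3-/- replicate 2, and Pcdhb19 is at 0 in wild-type replicate 2.

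Pcdhb12 was the other beta gene with both Npas3-/- libraries above wild type. It had 0 and 7 counts in wild-type cultures and 29 and 28 in Npas3-/- (log2 fold change 3.19, SE 1.51; adjusted p = 0.152, edgeR). Gm37446, an antisense gene that covers 1927 bases of its exon, had 0 and 0 counts in wild-type cultures and 29 and 20 in Npas3-/- (adjusted p = 0.0319, edgeR), and reads of the pair cannot be told apart without strand.

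The clusters differ in base composition. The median GC content of the main transcript was 47.6% over the alpha members, 45.6% over the beta members and 53.1% over the gamma members, against 50.2% over all tested genes. Over the 43 tested members, GC content of the variable exon and log2 fold change had a Spearman's rho of 0.50, given as a description, since all values share the 4 libraries. Beta genes had the lowest GC content and the lowest median log2 fold change of the 3 clusters, and that median went from -1.44 to -0.45 with the correction. The correction also takes away any true difference that goes with GC content or length.

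Gene models that share the gamma exons were read beside the members, and were chosen after their values were seen. Gm38182, which shares the gamma constant exons, had 88 and 15 counts in wild-type cultures and 1520 and 816 in Npas3-/- (log2 fold change 4.65, SE 0.92; adjusted p = 0.0217, edgeR), and it was called with the correction too (3.89; adjusted p = 0.0374, edgeR). The 3 readthrough genes that start in the alpha cluster and end in gamma, Gm42416, Gm37013 and Gm37388, had 0 counts in all libraries.

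Regulators of the clusters, which include cohesin and its loaders, CTCF and chromatin repressors, were called lower in part. Of 24 listed regulators, all tested, 12 were called lower and 0 higher in Npas3-/- by edgeR, against 21.5% lower and 11.6% higher of all tested genes. The list's median log2 fold change was -2.002, and -0.44 with the correction, against -0.07 and -0.08 over all tested genes. Rad21, a cohesin subunit, had 231 and 262 CPM in wild type and 56.2 and 52.0 CPM in Npas3-/- (log2 fold change -2.19, SE 0.20; adjusted p = 0.0130, edgeR). Rest, a repressor of neuronal genes that also represses protocadherin genes, had 69.8 and 92.5 CPM in wild type and 13.3 and 12.7 CPM in Npas3-/-. Nsd1, a histone methyltransferase, fell by 2.87 on the log2 scale (SE 0.30; adjusted p = 0.0130, edgeR). These 3 of 24 were the calls left with the correction for GC content and length, under which 7.88% of all tested genes were called lower, at -0.99, -1.55 and -1.48. Ctcf, the factor that binds the promoters and enhancers of the clusters and is named here outside the rule for its role, stood at -1.06 on the log2 scale (adjusted p = 0.0193, edgeR), and with the correction at -0.27 (adjusted p = 0.342, edgeR). Trim28, a corepressor and the most abundant of the list, had 288 and 187 CPM in wild type and 389 and 431 CPM in Npas3-/- (log2 fold change 0.79, SE 0.27; adjusted p = 0.0721, edgeR).

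Signalling and processing partners were called in both directions. Of 27 tested, 13 were lower and 3 higher in Npas3-/- (5 and 2 with the correction). Of all tested genes 21.5% were lower and 11.6% higher (7.88% and 4.78% with the correction), and the list's median log2 fold change was -0.61. Pdcd10, a binding partner of the gamma protocadherin tail, had 22.4 and 41.3 CPM in wild type and 2.27 and 2.01 CPM in Npas3-/- (log2 fold change -3.89, SE 0.41; adjusted p = 0.0130, edgeR). Ptk2, the focal adhesion kinase that gamma protocadherins inhibit, went from 78.2 and 84.2 CPM in wild type to 22.9 and 20.0 CPM in Npas3-/- (log2 fold change -1.92, SE 0.21; adjusted p = 0.0130, edgeR). Adam10, the protease that sheds the extracellular domain, went from 95.9 and 137 CPM to 23.8 and 14.6 CPM. These 3 were called with the correction as well, at -2.85, -1.29 and -1.05. Ctnnb1, which encodes beta-catenin and was the most abundant partner, did not pass the test (-0.44, SE 0.22; adjusted p = 0.175, edgeR).

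Other protocadherins, cadherins and adhesion molecules were counted beside the clusters, and each count that follows stands against 11.6% higher and 21.5% lower of all tested genes (4.78% and 7.88% with the correction). Of 11 tested non-clustered protocadherins, 7 were lower and 0 higher (2 and 1 with the correction): Pcdh17 went from 16.6 and 16.6 CPM in wild type to 1.35 and 1.06 CPM in Npas3-/-, and Pcdh19 from 13.1 and 12.6 to 1.82 and 1.36 CPM. Pcdh7 was called without the correction (-1.53; adjusted p = 0.0207, edgeR) and not with it (-0.13). Pcdh1, the most abundant, had 103 and 114 CPM in wild type and 112 and 113 CPM in Npas3-/-. Of 19 classical cadherins and catenins 2 were higher and 6 lower, Cdh11, Ctnnd2 and Cdh10 among the lower. Of 12 giant cadherins 1 was higher and 4 lower, Fat3, Fat2 and Fat4 among the lower, while Fat1, the most abundant, stood at -0.94 (adjusted p = 0.1003, edgeR). Of 27 other homophilic and synaptic adhesion molecules 1 was higher and 10 lower, Hepacam (224 and 269 against 42.2 and 42.1 CPM), Nlgn1 and Tenm3 among the lower.

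Genes between and beside the clusters were not called in 1 direction. Of 16 tested of 17 listed, 3 were higher and 2 lower in Npas3-/-, and with the correction 1 was higher and 0 lower. Of all tested genes 11.6% were higher and 21.5% lower, and with the correction 4.78% and 7.88%. Taf7, a subunit of the general transcription factor TFIID whose gene stands between the beta and gamma clusters, had 3.25 and 9.76 CPM in wild type and 1.05 and 0.65 CPM in Npas3-/- (log2 fold change -2.93, SE 0.66; adjusted p = 0.0280, edgeR). Tmco6 was higher (log2 fold change 1.33; adjusted p = 0.0248, edgeR) and Ik, a splicing factor gene, was lower (-1.04; adjusted p = 0.0249, edgeR). Ndufa2, the most abundant of the neighbours, had 89.2 and 54.2 CPM in wild type and 84.6 and 229 CPM in Npas3-/-, with the high value in Npas3-/- replicate 2 (log2 fold change 1.13, SE 0.51; adjusted p = 0.140, edgeR).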

How the data were processed

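RNA was sequenced from 4 astrocyte libraries, 2 of each genotype. The authors deposited 1 table of raw counts per gene, made on mm10 with HISAT2 2.1.0, Trimmomatic 0.3.8 and featureCounts per the submitters' processing notes. Not given in the sources used here are the annotation, whether strand was used and how reads of overlapping genes were counted. Identifiers were matched without their version to GENCODE release M21 (53274 of 53379 found, and all 58 family genes with the same version).

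Members and gene lists were chosen with earlier results of these data known. Counts were tested across all genes with edgeR 4.0.16 (quasi-likelihood test, TMM, filterByExpr with its minimum count of 10, Benjamini-Hochberg adjustment, threshold 0.05, no covariate, 2 residual degrees of freedom, R 4.3.3). CPM used TMM-scaled library sizes, and the SE is the log2 fold change over the square root of F. The correction fitted, per library, natural splines with 6 degrees of freedom in transcript GC content and log2 length to deviations of log2 CPM (pseudocount 2, genes of at least 1 CPM) as an offset.

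Named were the C-type members, the 3 most abundant genes of each of the alpha, beta, gamma A and gamma B groups, and members past the threshold, and in each other list up to 3 genes with the smallest p and the most abundant gene. The choice of other members was made with their values known. Alternatives were DESeq2 1.42.0 and its size factors, limma-voom (limma 3.58.1), other filters, a minimum of 50 counts, replicate blocks, total-count scaling, other lengths per kilobase and leaving out each library. Total counts per library set the depth. Wilson intervals at 95% cover counting error only, and take each count as an independent read. The floor of 3 counts covers the counting error of libraries at 0 only, and takes each count as an independent read. In simulated data for this comparison, 200 of 18164 genes were changed, 50 of each size, all with a mean of at least 50 counts. The share of them that edgeR called was 0% at 1.5-fold, 14% for 2-fold, 68% for 4-fold and 90% for 8-fold changes. In the real fit 33.1% of tested genes were called, and the simulation used the spread typical of a gene's level in place of its own. These shares therefore do not give the sensitivity for the members. Sequences of the members are not reported here.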

Additional observations from a re-analysis of the deposited data

How the results depend on the processing

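Counts are calls by edgeR unless another tool is named, and values of single genes are log2 fold changes of Npas3-/- over wild type. Alpha and C-type members had 0 calls under all fits. Leaving out each library in turn, with and without the correction for GC content and length, gave 0 to 5 calls for all members, 0 to 4 for beta and 0 to 2 for gamma members, 0 to 5832 for all genes, 0 to 18 for regulators, 0 to 14 for partners, 0 to 4 for non-clustered protocadherins, 0 to 8 for classical cadherins, 0 to 3 for giant cadherins, 0 to 9 for other adhesion molecules and 0 to 4 for neighbours. The same fits gave -2.14 to -0.57 for Npas3, -8.71 to 2.099 for Pcdha1, -0.53 to 0.69 for Pcdhac2, -1.84 to 0.34 for Pcdhb17, -2.13 to 0.54 for Pcdhb18, -0.89 to 0.55 for Pcdhga2, -0.32 to 0.24 for Pcdhgb2, -0.55 to 0.39 for Pcdhga7, -3.05 to 0.17 for Pcdhgb4, -7.33 to 0.75 for Pcdhga9, -0.27 to 0.34 for Pcdhgc3, -0.045 to 0.59 for Pcdhgc4, -0.40 to 0.31 for Pcdhgc5, -0.97 to 0.36 for Cadm4, -0.24 to 1.67 for Ndufa2, -0.33 to 0.11 for Pcdh1 and -1.73 to 0.31 for Pcdh7. With 1 library left out, the lone library of a genotype is assumed to vary like the pair of the other.

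With no filter on low counts the calls were 0 of the members, 0 of beta, 3997 of all genes, 4 of non-clustered protocadherins, 3 of giant cadherins, 6 of other adhesion molecules and 3 of neighbours, and Pcdhga2 had -0.0019. At 5 CPM or more on average they were 0 of the members, 0 of beta, 4 of non-clustered protocadherins and 3 of giant cadherins, with -0.048 for Pcdhga2 and -0.021 for Pcdhgc5. Members of at least 50 counts gave 0 calls, since Pcdhb15 has fewer. DESeq2 called 6 members, 3 beta and 3 gamma, and had 0.0035 for Pcdhga7, as its size factors did in edgeR (0.0035). Limma-voom had -0.13 for Pcdhga2. Over total counts the ratio of the gamma members was 1.01.

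With the correction the calls were 0 of the members, 0 of beta, 2386 of all genes, 3 of regulators, 7 of partners, 3 of non-clustered protocadherins, 5 of classical cadherins, 3 of giant cadherins, 6 of other adhesion molecules and 1 of neighbours. Values with it were -0.85 for Npas3, 0.69 for Pcdha1, 0.42 for Pcdhac2, 0.013 for Pcdhb17, 0.15 for Pcdhb18, -0.089 for Pcdhga2, -0.075 for Pcdhgc3, -0.11 for Pcdhgc5, -0.77 for Cadm4 and -0.20 for Pcdh1. Fitted over all tested genes with a pseudocount of 0.5, an alternative added later, it gave 0, 0, 2218, 3, 7, 3, 4, 1, 4 and 1 calls in the same order, and -0.75 for Npas3, 0.78 for Pcdha1, 0.52 for Pcdhac2, 0.065 for Pcdhb17, 0.23 for Pcdhb18, 0.0083 for Pcdhgb2, 0.063 for Pcdhga7, -0.016 for Pcdhgc5, -0.70 for Cadm4 and -0.087 for Pcdh1.

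Whether replicate numbers pair the libraries is not settled. The correlation of deviations from the genotype mean across genes was -0.32 for same-numbered libraries and 0.32 for crossed numbers. With 2 libraries per genotype these values mirror each other by construction, so they cannot decide it. The replicate block gave 0 calls of the members, 0 of beta, 2560 of all genes, 9 of partners, 3 of non-clustered protocadherins, 3 of classical cadherins, 2 of giant cadherins, 5 of other adhesion molecules and 0 of neighbours, with -0.14 for Pcdhga2 and -0.00058 for Pcdhgc5. The replicate block with the correction gave 0 of the members, 0 of beta, 427 of all genes, 2 of regulators, 2 of partners, 1 of non-clustered protocadherins, 1 of classical cadherins, 0 of giant cadherins, 1 of other adhesion molecules and 1 of neighbours, with -0.83 for Npas3, 0.39 for Pcdhac2, 0.17 for Pcdhb18, -0.21 for Pcdhga2, -0.078 for Pcdhgc3, -0.14 for Pcdhgc5, -0.78 for Cadm4 and -0.19 for Pcdh1. The crossed replicate block, added later, called 2 members, both beta, with -0.14 for Pcdhga2 and -0.00039 for Pcdhgc5. The cause of these shifts was not tested.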
